A study of Homo sapiens with 3 samples.

Results

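The genes described are 10 that act in poly(ADP-ribose) signalling and base excision repair, chosen by name: PARP1, PARP2, PARG, XRCC1, LIG3, POLB, APEX1, UNG, OGG1 and MUTYH. All 10 were found among the 27574 genes of a table of raw RNA sequencing read counts, and all 10 had at least 10 counts in every library, the level called detected here. The 3 libraries, named replicates 1, 2 and 3, came from H82R cells, a name the labels give to cells of the established human small cell lung cancer line H82. The labels also call this material a treated tumor, and they do not say what the R in H82R means. All 3 libraries carry the same treatment label, etoposide combined with cisplatin, with no dose or duration, and the labels name no untreated or parental sample. The data therefore give levels and their spread within 1 treated line, not an effect of treatment. Whether each library had a culture of its own is not stated, so the p-values speak of the spread among these 3 libraries, and that spread may be technical.

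Base excision repair removes small base lesions. A DNA glycosylase cuts out the damaged or wrong base, the endonuclease APEX1 nicks the strand at the empty site, POLB fills the gap, and LIG3, held by the scaffold protein XRCC1, seals it. PARP1 and PARP2 bind the strand breaks and attach chains of ADP-ribose to proteins nearby, which recruits XRCC1, and PARG takes the chains off again. In small cell lung cancer PARP1 is known for its abundance and as a drug target.

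The libraries held 25013265, 42610181 and 23868201 counts in replicates 1, 2 and 3, and 14612 genes were detected. Levels are given as CPM per kb, the count scaled to a common effective library size and divided by the length of all annotated exons of the gene merged, in kilobases; this scale allows genes to be compared within a library. The median detected gene stood at 5.57, 5.48 and 5.60 CPM per kb in replicates 1, 2 and 3. Of 6 neuroendocrine markers of the line, 5 lay above the median gene and INSM1 below it, and their summed level was 1056 to 1114 CPM. The summed levels of the 3 fibroblast markers were 0.417 to 1.05 CPM and those of the 3 endothelial markers 0.805 to 1.54 CPM, with none at 0 counts in every library. The fibroblast markers COL1A2 and DCN and the endothelial marker CDH5 were not detected, with at most 3 counts in a library. The 3 leukocyte markers summed to 26.1 to 34.7 CPM, nearly all of it from CD68 and CD3E, against 6, 10 and 7 counts of PTPRC, the defining one.

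The promoters of the 2 highest members, PARP1 and APEX1, and of the lowest, OGG1, are shown with those of UNG and LIG3, which with APEX1 are the members that hold the E-box CACGTG. The sequences are from RefSeq on GRCh38.p14 and run 5′ to 3′ on the strand of the gene. Promoter windows were found for 9 of the 10 members, all but POLB. Capitals mark the E-box CACGTG, the GC box GGGCGG and the CCAAT box, each searched on both strands, and none of these capitals overlap.
PARP1: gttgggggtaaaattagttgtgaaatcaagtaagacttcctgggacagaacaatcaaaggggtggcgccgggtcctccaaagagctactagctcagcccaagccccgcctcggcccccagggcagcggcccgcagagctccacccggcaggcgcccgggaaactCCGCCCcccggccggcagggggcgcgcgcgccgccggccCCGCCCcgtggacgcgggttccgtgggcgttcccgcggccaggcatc
APEX1: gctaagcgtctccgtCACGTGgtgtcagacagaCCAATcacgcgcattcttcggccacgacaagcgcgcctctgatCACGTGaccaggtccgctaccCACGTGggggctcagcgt
UNG: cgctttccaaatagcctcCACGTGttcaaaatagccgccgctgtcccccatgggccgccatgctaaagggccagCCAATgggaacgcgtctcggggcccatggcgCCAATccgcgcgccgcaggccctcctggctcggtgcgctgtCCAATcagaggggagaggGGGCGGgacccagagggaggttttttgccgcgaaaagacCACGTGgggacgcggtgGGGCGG
LIG3: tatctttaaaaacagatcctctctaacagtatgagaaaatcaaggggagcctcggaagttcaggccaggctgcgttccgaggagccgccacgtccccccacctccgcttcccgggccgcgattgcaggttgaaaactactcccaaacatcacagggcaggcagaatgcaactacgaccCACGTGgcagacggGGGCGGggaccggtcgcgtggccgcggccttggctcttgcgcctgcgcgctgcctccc
OGG1: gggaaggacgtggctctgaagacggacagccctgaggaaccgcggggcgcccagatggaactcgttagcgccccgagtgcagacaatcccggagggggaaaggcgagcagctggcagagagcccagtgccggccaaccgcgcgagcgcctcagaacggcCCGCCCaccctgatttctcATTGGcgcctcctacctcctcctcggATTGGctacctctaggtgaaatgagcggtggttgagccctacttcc

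The PARP1 sequence is chr1:226408094-226408343 on the minus strand, the 250 bases before the RefSeq start. The gene positions given with the levels come from GENCODE, whose starts can differ from those of RefSeq. That of LIG3 is chr17:34980262-34980511 and that of OGG1 chr3:9749702-9749951, both on the plus strand and also 250 bases long. The APEX1 sequence is shortened to chr14:20455106-20455220 and that of UNG, before its downstream start, to chr12:109097922-109098147, both on the plus strand. This leaves out only bases of annotated untranslated exons, in APEX1 also those of its neighbour OSGEP, which runs the other way. The ends of the shortened APEX1 and UNG sequences still lie within an untranslated exon. In UNG that end holds the last E-box and the last GC box marked. The APEX1 window held 3 E-boxes, and 0.0952% of the 27305 genes with a promoter window held 3 or more; the windows before the downstream UNG start and before LIG3 held 2 and 1. At least 1 E-box was found in 3 of 9 members, against 7.73% of all genes. A GC box was found in 7 of 9 members, against 46.2% of all genes, and a CCAAT box in 6 of 9, against 37.0%. No member window held the ETS site ACTTCCGG or the TATA box TATAAA, which 4.13% and 13.0% of all genes held. These matches are a description of the letters, with no measurement of binding.

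In CPM per kb, PARP1, APEX1 and the uracil glycosylase gene UNG were the leading members, and the 8-oxoguanine glycosylase gene OGG1 was the lowest by a wide margin. PARP1 had a mean level 17.8 times that of the median detected gene and APEX1 17.0 times, while OGG1 had 0.268 times. Of the 10 members, 8 lay above the median detected gene, OGG1 lay below it and POLB was not distinguished from it (limma-trend, two-sided one-sample test with Benjamini-Hochberg adjustment over 13516 genes, threshold 0.05). Of all genes tested, 45.2% were called above the median and 45.1% below, so a call in either direction is common, and each member is described by the size of its distance. The median distance of the members from the median gene was 0.83 on the log2 scale of CPM per kb.

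**Figure D1:**
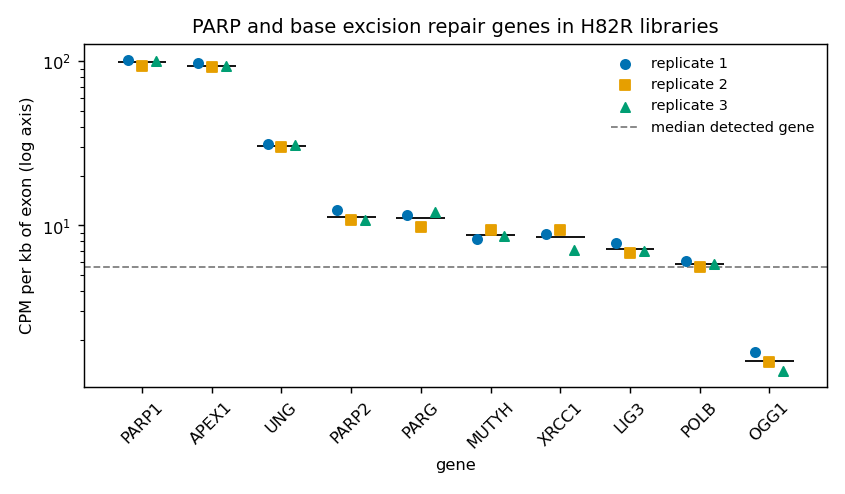
Level of each gene in CPM per kb of exon (log axis) in each H82R library, with a line at the mean of the 3 libraries and a dashed line at the median detected gene. PARP1 and APEX1 sit near 100 CPM per kb, 7 genes lie between 5 and 32 CPM per kb, and only the mean of OGG1 lies under the dashed line.

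The enzymes that write poly(ADP-ribose) were unequal. PARP1, the main writer, had 103, 94.1 and 101 CPM per kb in replicates 1, 2 and 3, from 18280, 28819 and 17405 reads. The 3 libraries lay close together, the highest 1.09 times the lowest. PARP1 stood 4.16 ± 0.07 (SE) above the median gene on the log2 scale of CPM per kb (limma-trend, n = 3, adjusted p = 1.32e-09), higher than 98.2% of detected genes. The gene lies on chromosome 1 from 226360691 to 226408079 (GRCh38, GENCODE release 29), on the minus strand. The annotation also holds 2 processed pseudogenes, PARP1P1 on chromosome 13 and PARP1P2 on chromosome 14, and how reads shared with them were counted is not given in the sources used here.

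PARP2, its closest relative in DNA break signalling, had 12.4, 10.8 and 10.9 CPM per kb. Replicate 1 was the highest, and none came near the PARP1 level. Its distance from the median gene was 1.03 ± 0.08 (SE) on the log2 scale of CPM per kb (limma-trend, adjusted p = 4.03e-06). Within a library, PARP1 exceeded PARP2 by 8.30 times in replicate 1 (95% exact binomial interval 7.84 to 8.80), 8.74 times in replicate 2 (8.34 to 9.16) and 9.32 times in replicate 3 (8.76 to 9.92), in counts per kb, and the mean ratio was 15.4 with no division by length. PARP2 lies on chromosome 14 from 20343582 to 20357905, 97286 bases from APEX1. Of its exon bases 2.54% also belong to an antisense gene, and without a known strand setting for the counting the reads of the 2 genes cannot be told apart.

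PARG, the glycohydrolase that removes the chains, had 11.6, 9.73 and 12.1 CPM per kb, a mean of 11.2 ± 1.27 (SD, n = 3). Replicate 2 lay lowest, and the range overlapped that of PARP2: PARP2 was the higher of the pair in replicates 1 and 2 and the lower in replicate 3. PARP1 exceeded PARG by 8.82, 9.67 and 8.34 times in counts per kb. The distance of PARG from the median gene was 1.001 ± 0.085 (SE) on the log2 scale of CPM per kb (limma-trend, adjusted p = 6.23e-06). The gene lies on the minus strand of chromosome 10 from 49818279 to 49970203. PARG has a transcribed unprocessed pseudogene, PARGP1, on the same chromosome 10, so its level is uncertain by the reads the copies share.

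Among the roles of the 10 members, the glycosylases spanned the widest range in CPM per kb. With no division by length the mean PARP1 to PARP2 ratio, 15.4, was larger than the UNG to OGG1 ratio, 6.09. UNG, which removes uracil from DNA, had 31.4, 29.9 and 30.8 CPM per kb and the smallest spread of all members, the highest library being 1.05 times the lowest. MUTYH, which removes adenine opposite 8-oxoguanine, had 8.31, 9.43 and 8.66 CPM per kb. OGG1, which removes 8-oxoguanine itself, had 1.70, 1.48 and 1.29 CPM per kb, from 368, 552 and 271 reads. The ranges of the 3 genes did not overlap. The distance of OGG1 from the median gene was -1.90 ± 0.12 (SE) on the log2 scale of CPM per kb (limma-trend, adjusted p = 1e-06), and 23.6% of detected genes lay lower still. UNG lay 2.47 ± 0.07 (SE) above it (limma-trend, adjusted p = 1.09e-08) and MUTYH 0.66 ± 0.09 (SE) above it (limma-trend, adjusted p = 0.000104). UNG lies on chromosome 12 from 109097574 to 109110992 and OGG1 on chromosome 3 from 9749944 to 9788219, both on the plus strand, and MUTYH on the minus strand of chromosome 1 from 45329163 to 45340470. UNG has processed pseudogenes, UNGP1 on chromosome 16 and UNGP3 on chromosome 14. How reads shared with them were counted is not given in the sources used here.

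UNG exceeded OGG1 by 18.5, 20.2 and 23.8 times in counts per kb in replicates 1, 2 and 3. OGG1 stood at 0.204, 0.157 and 0.150 times MUTYH. Length bears on these ratios: the merged exons of OGG1 measure 8733 bases against 4977 for its longest transcript, and with the longest transcript as length the mean UNG to OGG1 ratio was 13.6. With no division by length that ratio was 6.09 and the OGG1 to MUTYH ratio 0.377. Of the OGG1 exon bases 24.96% also belong to CAMK1 on the opposite strand, which had 19, 69 and 30 reads. A further 4.08% belong to TADA3 on the opposite strand, which had 2080, 3986 and 1775 reads, more than OGG1 itself. Of the MUTYH exon bases 14.1% also belong to TOE1 on the opposite strand, which had 498, 877 and 525 reads. With the strand setting not given, the counts of MUTYH and OGG1 are uncertain by what these neighbours share.

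APEX1, the endonuclease that cuts at the empty sites the glycosylases leave, had 97.7, 91.9 and 93.6 CPM per kb. The mean of 94.4 ± 2.96 (SD, n = 3) was close to that of PARP1, and the ranges of the 2 genes overlapped although PARP1 was higher in each library. That closeness rests on the merged exons as length: with the longest transcript the means were 179.9 ± 8.36 CPM per kb for PARP1 and 98.7 ± 3.10 for APEX1 (SD, n = 3), and with no division by length PARP1 had 4 times the counts of APEX1. APEX1 lay 4.08 ± 0.06 (SE) above the median gene on the log2 scale of CPM per kb (limma-trend, adjusted p = 1.15e-09). It exceeded its paralog APEX2 by 12.9, 15.1 and 13.3 times in counts per kb, and by a mean of 7.99 times with no division by length. APEX1 lies on chromosome 14 from 20455191 to 20457772 and its start lies 86 bases from that of OSGEP, which runs the other way and had 761, 1534 and 848 reads. The sequence shown above covers the stretch between these starts and runs past the APEX1 start of this annotation, so that its last E-box lies within the gene as placed here. Of the APEX1 exon bases 2.86% also belong to PIP4P1 on the opposite strand, counted as TMEM55B with 459, 886 and 440 reads, and the strand setting is not given.

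In CPM per kb the members that act in gap filling and ligation, POLB, XRCC1 and LIG3, stood far below APEX1. With no division by length LIG3 had a mean of 93.4 CPM against 178 CPM for APEX1. POLB, the gap-filling polymerase, had 6.09, 5.59 and 5.86 CPM per kb, a distance of 0.08 ± 0.09 (SE) from the median gene on the log2 scale of CPM per kb (limma-trend, adjusted p = 0.442). APEX1 exceeded POLB by 16.0, 16.4 and 16.0 times in counts per kb, the ratio with the least spread of the 10 fixed pairs. The size of that ratio depends on length, its mean being 5.52 with the longest transcript and 7.42 with no division by length. The POLB position depends on its length: with the longest transcript of 1341 bases in place of 4106 bases of merged exons, POLB was called above the median gene (limma-trend, a log2 distance of 1.23, adjusted p = 2.47e-06), and without division by length it was called below (-0.27, adjusted p = 0.0203). When every gene with a count was kept it was also called above (0.998, adjusted p = 1.29e-06).

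XRCC1, the scaffold, had 8.90, 9.40 and 7.08 CPM per kb, and its partner LIG3 had 7.82, 6.83 and 7.03 CPM per kb. The ranges of this pair overlapped, and replicate 3 was the lowest for XRCC1. XRCC1 was 1.14, 1.37 and 1.01 times LIG3 in counts per kb in replicates 1, 2 and 3; the interval of replicate 3, from 0.918 to 1.10, included 1. With the longest transcript as length the mean ratio was 0.934, so the order of the pair is not settled by these data. LIG3 stood 0.38 ± 0.07 (SE) above the median gene on the log2 scale of CPM per kb (limma-trend, adjusted p = 0.00119). That call was lost when only genes with at least 1 CPM in every library were kept (0.17, adjusted p = 0.0571). With no division by length LIG3 lay 1.69 above the median gene (limma-trend, adjusted p = 1.3e-07). XRCC1 stood 0.60 ± 0.11 (SE) above it (limma-trend, adjusted p = 0.000813), and without division by length it was not distinguished (0.01, adjusted p = 0.943). XRCC1 lies on the minus strand of chromosome 19 from 43543040 to 43580473, and 6.48% of its exon bases also belong to another coding gene on the same strand and 15.5% to an antisense gene. LIG3 lies on chromosome 17 from 34980494 to 35009743 and POLB on chromosome 8 from 42338454 to 42371808, both on the plus strand. In counts per kb LIG3 was 0.930, 0.604 and 0.782 times LIG1, the replicative DNA ligase gene, but with no division by length the mean ratio was 1.49, in the other direction. Of the LIG3 exon bases 29.1% also belong to RFFL on the opposite strand, which had 109, 258 and 122 reads.

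**Figure D2:**
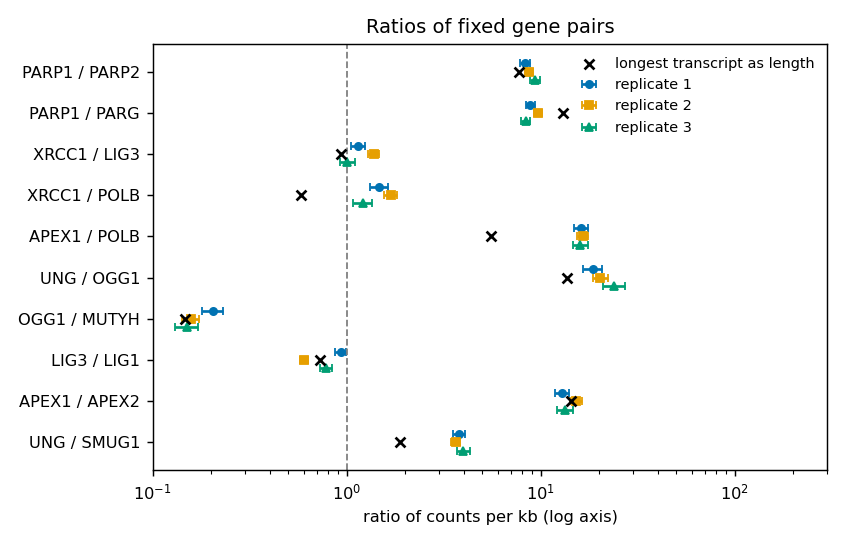
Ratio of counts per kb for 10 gene pairs (log axis) in each library, with 95% exact binomial intervals, which cover counting error only, and a cross for the mean ratio with the longest transcript as length. The 3 libraries lie on the same side of 1 (dashed) for all 10 pairs, but the cross falls on the other side for XRCC1 against LIG3 and against POLB.

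The order of the members by mean CPM per kb was PARP1, APEX1, UNG, PARP2, PARG, MUTYH, XRCC1, LIG3, POLB and OGG1. Of the 9 neighbouring pairs in this order, 5 had ranges that did not overlap, and 7 kept their order in all 3 libraries. The pairs with overlapping ranges were PARP1 and APEX1, PARP2 and PARG, MUTYH and XRCC1, and XRCC1 and LIG3. The first 4 places and the last were the same with the longest transcript as length, while POLB moved to the fifth. With no division by length LIG3 took place 3, ahead of UNG, and PARP2 took place 6, while OGG1 was still last. All 10 fixed pairs had the same direction in the 3 libraries in counts per kb, with an exact sign-flip p of 0.25 for each (two-sided, and 0.25 after adjustment over the 10 pairs), which is the smallest 3 libraries allow.

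**Figure D3:**
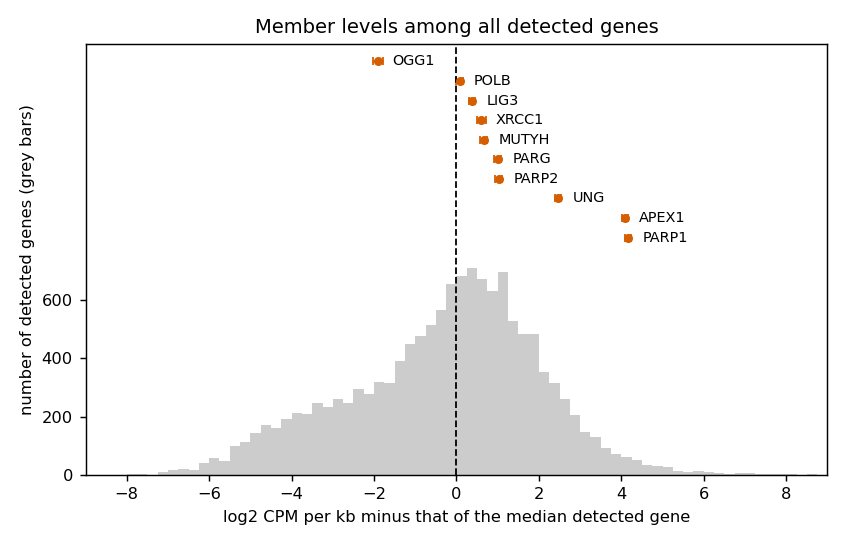
Distance of each member from the median detected gene on the log2 scale of CPM per kb (points, with SE from limma-trend over 3 libraries) above a histogram of all detected genes with a known length. PARP1 and APEX1 lie in the upper tail, 4.16 and 4.08 above the median, and OGG1 lies at -1.90.

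Most members had a smaller spread between libraries than the median detected gene. Detected genes can have as few as 10 counts in a library, while the lowest member count was 271, for OGG1 in replicate 3. The part of read depth in this was not tested. The SD of log2 CPM was under that of the median detected gene (0.17) for 7 members and at or above it for PARG, XRCC1 and OGG1. It ranged from 0.03 for UNG to 0.22 for XRCC1. The members' counts differed by more than counting error in 8 cases (chi-square test of homogeneity with Benjamini-Hochberg adjustment over 14612 genes), against 68.7% of all detected genes, and UNG and POLB did not pass. Deep counts make small differences pass this test: PARP1 passed with a coefficient of variation of 4.65%. The number of members that passed was 3 without replicate 1, 4 without replicate 2 and 6 without replicate 3, against 52.8%, 39% and 51.1% of all detected genes.

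Replicate 1 had the highest CPM for 7 of the members and replicate 2 the lowest for 7, against 31.1% and 36.4% of all detected genes. The summed level of the 10 members was 1315, 1212 and 1273 CPM in replicates 1, 2 and 3, and replicate 2 was the deepest library; the part of depth in this was not tested. MUTYH and XRCC1 were highest in replicate 2 and PARG in replicate 3. The largest single departures from a gene's mean log2 CPM were those of XRCC1 in replicate 3 (-0.25), OGG1 in replicate 1 (0.20) and replicate 3 (-0.19), and PARG in replicate 2 (-0.19).

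**Figure D4:**
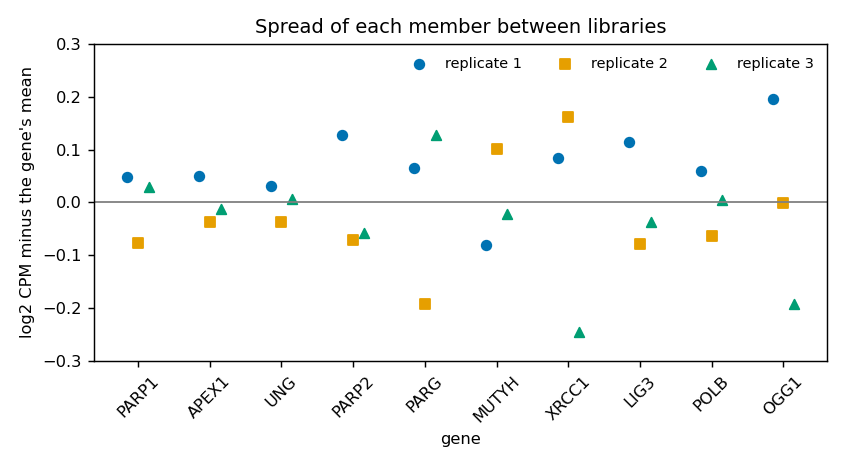
Departure of each library from the gene's own mean of log2 CPM, with one marker for each replicate. UNG, APEX1 and POLB lie within 0.07 of 0 in every library, and XRCC1 and OGG1 spread the most.

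Among 17 genes of the ADP-ribosyltransferase family, the members PARP1 and PARP2 included, 15 were detected. Of these, 6 lay above the median gene, 6 below and 3 were not distinguished (limma-trend, against 45.2% of all genes above and 45.1% below). After PARP1, the tankyrase genes TNKS2 (18.3 ± 0.616 CPM per kb, SD, n = 3) and TNKS (18.2 ± 2.32) were highest. The lowest detected was PARP14 (0.259 ± 0.0750 CPM per kb), which belongs with the undetected PARP9 to the members of the family known for interferon-linked functions. PARP9 had 2, 5 and 1 counts and PARP15 had 1, 5 and 4. The median distance of the detected genes was -0.12 on the log2 scale of CPM per kb.

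Of 9 genes that remove ADP-ribose or assist PARP enzymes, the member PARG included, 7 lay above the median gene and 1 below. Of all genes, 45.2% lay above and 45.1% below. CHD1L, a chromatin remodeler activated by poly(ADP-ribose), reached 30.8 ± 1.33 CPM per kb, ADPRHL2, which removes ADP-ribose from serine, 30.5 ± 1.45, and C4orf27, also called HPF1, the cofactor that directs PARP1 and PARP2 to serine, 15.3 ± 1.40. MACROD2 was the lowest detected at 0.737 ± 0.150 CPM per kb, and ADPRH had 1, 3 and 1 counts. The median distance of the detected genes was 1.09 on the log2 scale.

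All 11 DNA glycosylases, the members UNG, MUTYH and OGG1 included, were detected. Of these, 7 lay above the median gene, 3 below and 1 was not distinguished (against 45.2% of all genes above and 45.1% below). UNG led, followed by the thymine DNA glycosylase gene TDG (17.9 ± 0.803 CPM per kb) and MBD4 (9.36 ± 0.582), which act on mismatches that deamination of cytosine or methylcytosine leaves. SMUG1, a second uracil glycosylase, stood at 8.09 ± 0.302 CPM per kb; UNG exceeded it by 3.78, 3.64 and 3.98 times in counts per kb in replicates 1, 2 and 3, against a mean of 1.89 with the longest transcript and 1.62 with no division by length. The lowest was NEIL1, a glycosylase for oxidised bases, at 0.933 ± 0.176 CPM per kb, and the other 2 below the median gene were OGG1 and MPG, a glycosylase for alkylated bases.

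The list of 13 genes for strand-break processing, gap filling and ligation includes the members APEX1, POLB, XRCC1 and LIG3. Of the 13, 9 lay above the median gene, 2 below and 2 were not distinguished (against 45.2% of all genes above and 45.1% below). PCNA, the replication clamp, reached 192 ± 14.5 CPM per kb, above APEX1, and the flap endonuclease gene FEN1 48.9 ± 1.10, both of them also replication genes. APLF, a poly(ADP-ribose)-binding repair factor, was the lowest at 0.169 ± 0.0218 CPM per kb. Both genes that clean the nucleotide pool lay above the median gene: DUT, which destroys dUTP, at 21.9 ± 1.46 CPM per kb and NUDT1, which destroys oxidised dGTP, at 7.30 ± 1.07.

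**Figure D5:**
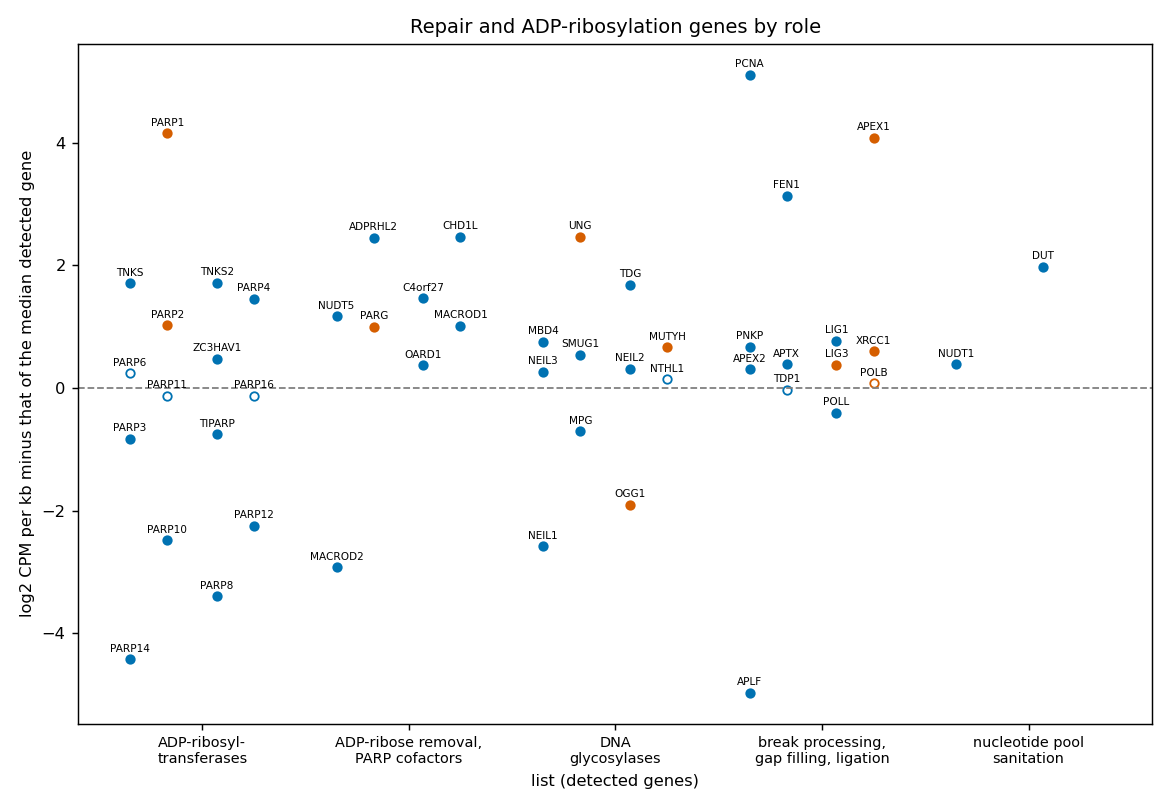
Distance of each detected gene from the median detected gene on the log2 scale of CPM per kb, by role. The 10 members are orange and other genes blue, and open circles mark genes not distinguished from the median gene, such as POLB; a gene appears once in each list it belongs to.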

How the data were processed

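The authors deposited 1 table of raw read counts, not normalized, with genes in rows and a column for each of the 3 Illumina libraries, matched by title; per the labels' protocols the RNA was isolated with TRIzol. The submitters' processing notes list STAR 2.6.1b and hg38 without saying what each was used for. For the counting program, its annotation and its strand setting, the entry is: not given in the sources used here.

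Of 27587 names, 13 had been turned into dates; these rows, with 0.0665% to 0.0736% of each library's counts, were left out. Effective library sizes used TMM factors (edgeR 4.0.16; 0.993, 1.00 and 1.00). Exon lengths came from GENCODE release 29, whose assembly GRCh38 is the one hg38 names; 19574 names matched directly and 480 through an older symbol, and 92.5% of detected genes had a length. It need not be the annotation the authors counted with.

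The labels form 1 group, so no contrast between conditions exists. log2 CPM (prior count 2) per kb minus the library's median over detected genes entered a one-sample limma-trend test (R 4.3.3 with limma 3.58.1), whose variance trend used mean log2 CPM. On simulated data for 13354 genes it called 7% of 200 genes at no distance, 92.5% of 200 at 0.5 and 95.5% of 200 at -0.5 (log2). Intervals are exact binomial intervals of the counts of a gene pair within 1 library, so they cover counting error only. The sources name no molecular identifiers for the reads. Alternatives left out each library or changed the filter, scaling (DESeq2 1.42.0), prior count, test, length or the gene used as typical. Members, lists, pairs and motifs were chosen with earlier results of these data known. Genes named by rule are all members and pair genes, and the 3 highest, the lowest detected and every undetected gene of each other list. Annotated neighbours of members are also named, though not all of them. Of the cell type markers only those the text needs are named, and these and MPG were chosen after their values were seen.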

Additional observations from a re-analysis of the deposited data

How the results depend on the processing

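Leaving out each library, scaling by DESeq2 size factors or by totals, limma-voom, a prior of 0.5 counts, the edgeR quasi-likelihood test of the intercept and protein-coding genes alone all gave 8 members above and 1 below the median gene. Against the upper quartile of detected genes 3 members lay above and 7 below, against 21.5% and 71% of all genes, by construction of a higher bar: PARP2 (-0.23), PARG (-0.26), MUTYH (-0.60), XRCC1 (-0.66), LIG3 (-0.88) and POLB (-1.18, log2 distances) changed sign. Without division by length 2 members lay below, and POLB changed sign (-0.27), as it did with at least 1 CPM in every library (-0.13). The number of members past the homogeneity test ranged from 3 to 6 when 1 library was left out. Fewer libraries and counts are then compared, and the part of this in the drop was not tested.

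Lengths moved the ratios. With no division by length the mean ratios were 15.4 for PARP1 to PARP2, 12.5 for PARP1 to PARG, 1.21 for XRCC1 to POLB, 7.42 for APEX1 to POLB, 6.09 for UNG to OGG1, 0.377 for OGG1 to MUTYH, 7.99 for APEX1 to APEX2 and 1.62 for UNG to SMUG1, and those of XRCC1 to LIG3 (0.312) and LIG3 to LIG1 (1.49) changed direction. With the longest transcript they were 7.68 for PARP1 to PARP2, 13.0 for PARP1 to PARG, 5.52 for APEX1 to POLB, 13.6 for UNG to OGG1 and 1.89 for UNG to SMUG1, and those of XRCC1 to LIG3 (0.934) and XRCC1 to POLB (0.579) changed direction. No paired analysis was possible because the samples form 1 group.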
